A study of Homo sapiens with 6 samples.

Results

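The proteasome genes described here are the protein-coding genes whose symbols begin with PSMA to PSMG and end in a number, together with POMP, ADRM1, SEM1 and USP14. The rule found 50 of the 33981 genes in the count table, and all 50 passed the filter on low counts, among 19182 genes tested. The rule uses names and gene types only, not measured values, but it was set with earlier results of these data known. PSMA8 and PSMB11, subunits of testis and thymus proteasomes, had no row and were not analysed here.

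THP-1, an established monocytic line from an acute myeloid leukaemia, was transduced with lentiviral vectors carrying a GFP reporter and sorted for GFP, and bulk mRNA was sequenced 4 days after infection. The 3 control samples (C1, C3, C4) were labelled as scrambled shRNA, and the 3 others (N1, N2, N3) carried an shRNA against NFIC, a transcription factor of the nuclear factor I family. The study's methods describe control cells as carrying GFP alone, while its results and figure legends name a scrambled control, as the labels do. Its results also number the controls differently from the labels. Which vector the controls received is therefore not settled. Nothing stated that the 3 samples of a group were separate cultures, so the p-values measure the spread between these samples, which may be technical.

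The comparison asks how the mRNA of the protein degradation machinery differed once NFIC was knocked down. NFIC mRNA was 42.1, 41.4 and 42.2 CPM (counts relative to the library's total, scaled by TMM factors) in C1, C3 and C4 and 19.4, 22.3 and 21.4 CPM in N1, N2 and N3, so 50.1% remained (log2 fold change -0.99, SE 0.072). Total counts ran from 20369543 to 24809720 per sample, and a count of 3, the limit that a count of 0 allows, was 0.121 to 0.147 CPM. All 8 monocytic markers examined had counts, and their summed level was 1693 to 1781 CPM in the controls and 3154 to 3551 CPM with NFIC shRNA, whereas the T cell and erythroid markers that had rows summed to at most 0.173 CPM. The B cell marker CD79A was at 2.10 to 2.76 CPM in the controls and 1.16 to 1.36 CPM with NFIC shRNA, and the epithelial markers EPCAM and CDH1 summed to 0.647 to 1.14 and 0.130 to 0.194 CPM. Most of the increase of the monocytic sum was S100A9, at 485, 565 and 543 CPM in the controls and 1491, 1672 and 1785 CPM with NFIC shRNA. Within the monocytic list CD33 and CSF1R were lower in every NFIC shRNA sample, and the groups overlapped for FCGR1A. The part of the higher summed level of these markers in the values of the proteasome genes was not tested, and in bulk RNA fewer cells of a type and less RNA per cell cannot be told apart.

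The proteasome degrades proteins tagged with ubiquitin. Its 20S core is a stack of rings, with outer rings of alpha subunits that gate the entry and inner rings of beta subunits, some of which cut peptide bonds, and the 19S regulatory particle at its ends binds, deubiquitinates and unfolds the substrate. Dedicated chaperones build the core and the regulatory particle, and in interferon-treated and haematopoietic cells inducible catalytic subunits take the places of the constitutive ones and make the immunoproteasome, which favours peptides that fit MHC class I.

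Most proteasome genes were higher with NFIC shRNA. Of the 50, 33 rose and 4 fell in edgeR's quasi-likelihood test at an adjusted p under 0.05, and 13 were not called. Across all genes tested, 59.9% were called, 29.6% as higher and 30.3% as lower, so 66.0% of the proteasome genes stood against 29.6% for increases and 8.0% against 30.3% for decreases. The median log2 fold change was 0.30 for the 50 genes and -0.01 for all genes tested. Among the 11569 genes within the same range of mean expression, 36.9% rose and 30.7% fell. The values of the groups did not overlap, with NFIC shRNA higher, for 37 of the 50 genes against 32.2% of all genes, and lower for 5 against 33.0%.

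**Figure D1:**
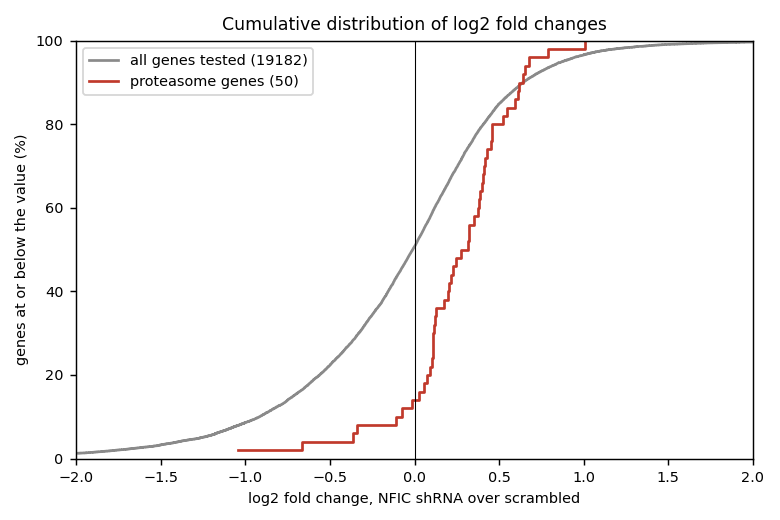
Cumulative share of genes (vertical axis, %) at or below each log2 fold change, NFIC shRNA over scrambled (horizontal axis), for all 19182 genes tested (grey) and the 50 proteasome genes (red). The red curve crosses the midline at 0.30 and the grey one at -0.01, and the red tail below -0.50 holds PSMG4 and PSMG1.

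Summed over the 50 genes, the level was 3832, 3951 and 3830 CPM in C1, C3 and C4. It was 4802, 4640.1 and 5118 CPM in N1, N2 and N3, a ratio of means of 1.25. Every NFIC shRNA sample lay above every control. The samples of 1 group were not alike: N3 was the highest NFIC shRNA sample for 39 of the 50 genes and N2 the lowest for 37, while C3 was the highest control for 31. N3 lay a median of 0.07 above its group's mean on the log2 scale over these genes, against 0.0030 over all genes tested. Without N3, 30 genes rose and 5 fell, and without C3 and N3 together 33 rose and 5 fell.

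**Figure D2:**
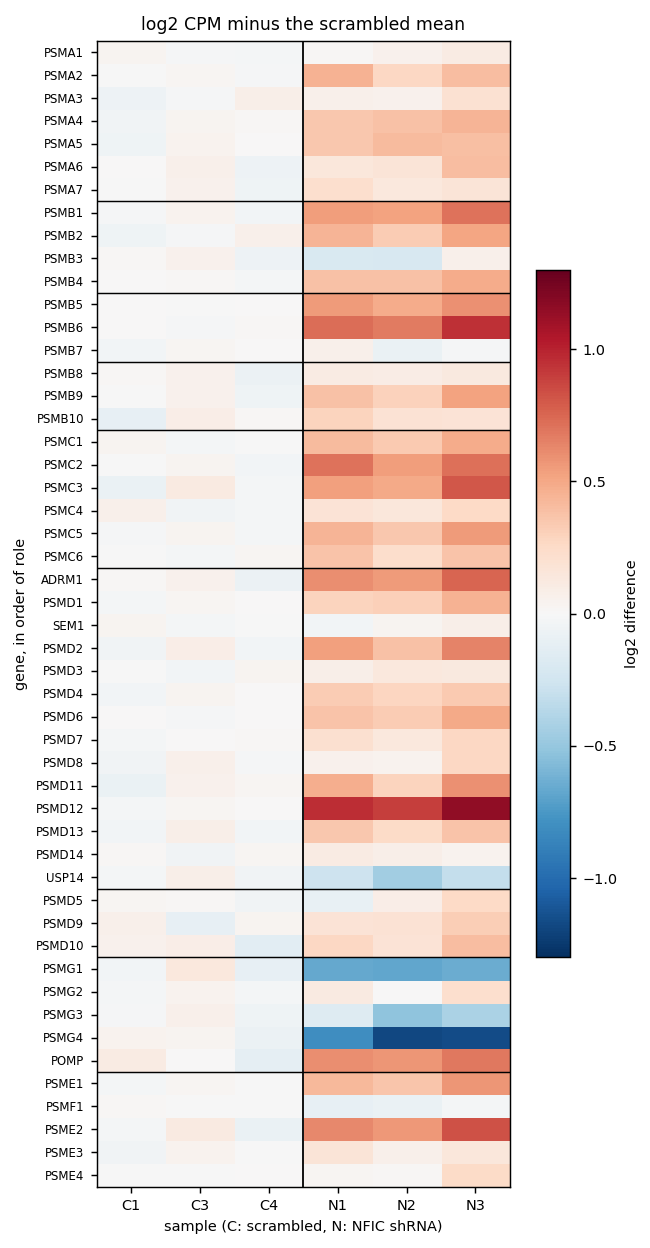
Level of each of the 50 proteasome genes (rows, grouped by role) in each sample (columns), as log2 CPM minus the mean of the 3 scrambled samples. Most rows turn higher in N1, N2 and N3, with N3 the deepest, and PSMG1, PSMG3, PSMG4 and USP14 turn lower.

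The roles did not share one size of change. All 6 ATPases of the 19S particle rose, with a median log2 fold change of 0.43, as did 5 of 7 alpha subunits (median 0.24), 3 of 4 structural beta subunits (0.42), 2 of 3 constitutive catalytic subunits (0.55), 2 of 3 inducible catalytic subunits (0.21) and 9 of 14 non-ATPase subunits (0.32). Assembly chaperones of the 20S core were the one role with a median below 0, at -0.37, with 1 of 5 higher and 3 lower. Beside these counts, 29.6% of all genes tested rose and 30.3% fell, and among genes of the same range of expression 36.9% and 30.7%. No role was tested as a group against the others.

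**Figure D3:**
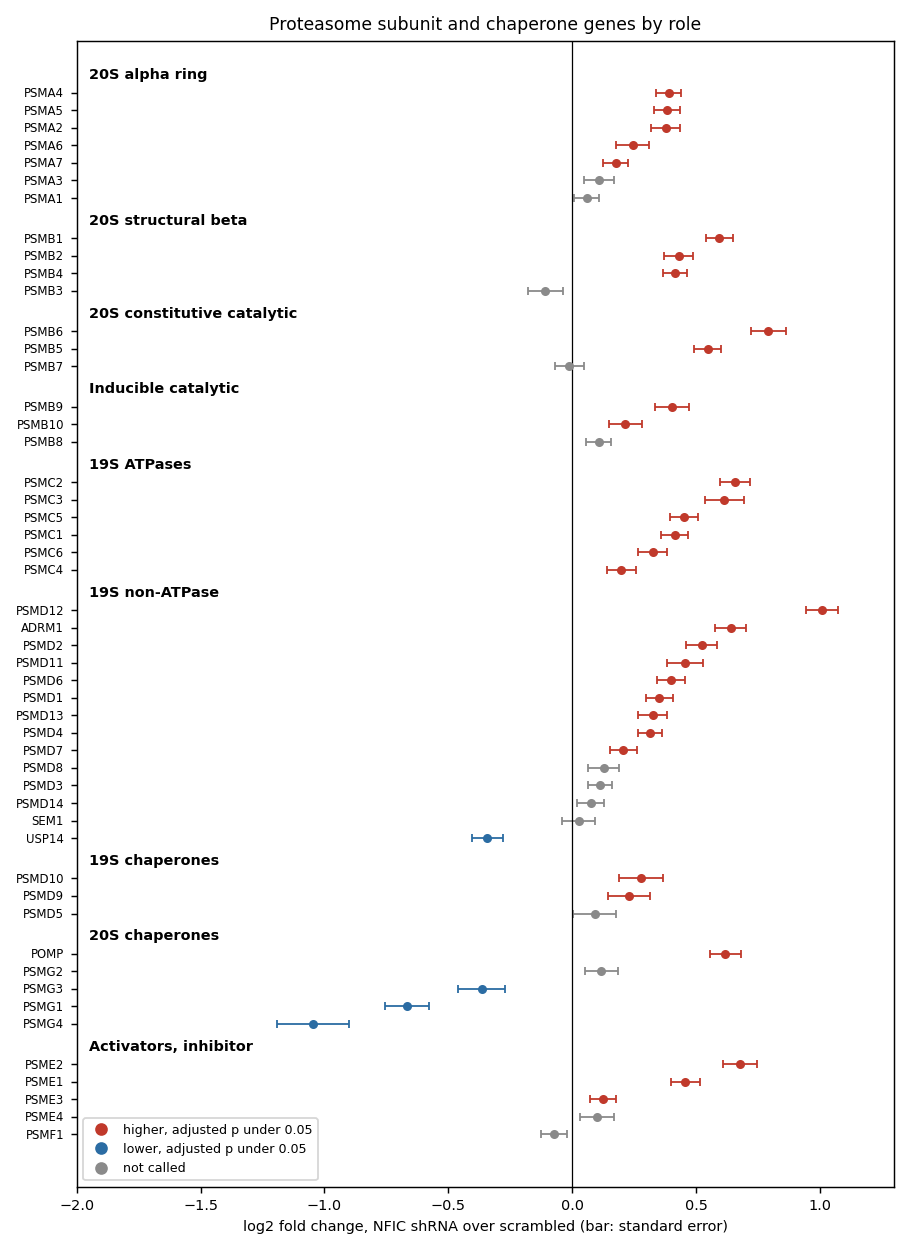
Log2 fold change, NFIC shRNA over scrambled, with its standard error as a bar (horizontal axis), for each of the 50 proteasome genes (vertical axis), ordered by role. Red marks genes higher and blue genes lower at edgeR's adjusted p under 0.05, and grey marks genes not called. Fold changes run from -1.05 for PSMG4 to 1.01 for PSMD12, and every ATPase lies above 0.

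The promoters of 4 of these genes are shown: PSMD12 and USP14, with the largest increase and the one decrease in the 19S particle, ADRM1, with the next largest increase among its non-ATPase subunits, and PSMG4, with the largest decrease of all 50. Proteasome promoters are known for the antioxidant response element bound by NFE2L1 and NFE2L2, whose core was searched as TGACNNNGC and, in a longer form, as the same letters followed by A. The windows, from RefSeq on GRCh38.p14, run from 250 bases before to 50 after the start site, 5′ to 3′ along the gene, and capitals mark the core or the CCAAT box.
PSMD12, chr17:67366528-67366827, minus strand: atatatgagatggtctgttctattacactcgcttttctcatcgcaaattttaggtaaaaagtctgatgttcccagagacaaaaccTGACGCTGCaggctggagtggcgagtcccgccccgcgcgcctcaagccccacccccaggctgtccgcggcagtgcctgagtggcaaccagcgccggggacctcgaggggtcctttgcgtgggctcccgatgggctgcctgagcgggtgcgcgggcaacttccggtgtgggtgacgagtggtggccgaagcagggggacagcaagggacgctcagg
ADRM1, chr20:62302646-62302945, plus strand: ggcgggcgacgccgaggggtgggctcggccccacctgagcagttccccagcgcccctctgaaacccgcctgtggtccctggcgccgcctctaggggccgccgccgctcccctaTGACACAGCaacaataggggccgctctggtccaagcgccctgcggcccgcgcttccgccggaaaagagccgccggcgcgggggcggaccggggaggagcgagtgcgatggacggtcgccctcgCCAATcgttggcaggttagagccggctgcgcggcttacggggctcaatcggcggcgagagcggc
USP14, chr18:158307-158606, plus strand: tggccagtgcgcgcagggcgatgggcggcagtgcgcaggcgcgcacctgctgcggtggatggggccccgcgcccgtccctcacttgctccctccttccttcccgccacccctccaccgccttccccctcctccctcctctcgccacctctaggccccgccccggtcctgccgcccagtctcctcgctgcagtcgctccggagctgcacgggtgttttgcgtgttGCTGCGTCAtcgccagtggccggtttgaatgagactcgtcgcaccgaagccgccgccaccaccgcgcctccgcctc
PSMG4, chr6:3258697-3258996, plus strand: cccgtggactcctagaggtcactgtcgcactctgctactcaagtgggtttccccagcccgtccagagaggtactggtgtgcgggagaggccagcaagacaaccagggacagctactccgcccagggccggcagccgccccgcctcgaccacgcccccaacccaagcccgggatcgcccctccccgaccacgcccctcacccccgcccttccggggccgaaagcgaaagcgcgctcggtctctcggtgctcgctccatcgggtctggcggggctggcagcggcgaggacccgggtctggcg

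Counted from the start site, the core began at position -165 in PSMD12 and -137 in ADRM1 (-238 in another ADRM1 window, not shown). It lay on the opposite strand in USP14 and was not in the PSMG4 window. The PSMG4 window lies inside the gene's GENCODE 44 span, which starts at base 3231403, and the bases at that start are not shown. Windows were found for 44 of the 50 genes (56 windows, of 35116 in all). The short core stood, on either strand, in 33.9% of the windows of proteasome genes and 13.3% of all windows, and the longer form, every match of which is also a match of the short core, in 21.4% and 3.18%. CCAAT stood in 39.3% and 34.6%. The palindrome of the nuclear factor I family was searched as TGGC and GCCA with 5 bases between them. It was in 0 of the 56 windows and in 0.906% of all. At so low a share 56 windows cannot tell absence from the usual rate, and TGGC alone was not searched. The 11 genes with the longer form had a median log2 fold change of 0.35, with 7 higher and 1 lower, against 0.28 in the 33 genes without it, with 22 higher and 2 lower. The short core went the other way, with a median of 0.21 in the 18 genes that had it (10 higher, 2 lower) and 0.32 in the 26 without (19 higher, 1 lower). Of all 50 genes 66.0% rose and 8.0% fell, and of all genes tested 29.6% and 30.3%. Genes with and without a motif were not tested against each other. The motifs were searched with the fold changes already known, and a match is a description of the letters only.

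Among the alpha subunits, PSMA4 had the largest increase, at 135, 143 and 141 CPM in the controls and 177, 181 and 189 CPM with NFIC shRNA (log2 fold change 0.39, SE 0.050, edgeR adjusted p = 3.27e-06). PSMA2, PSMA5, PSMA6 and PSMA7 also rose, by 0.18 to 0.38 on the log2 scale, with no overlap between the groups. Without C4 the call of PSMA7 was lost (0.15, adjusted p = 0.0535), and without N3 PSMA6 had 0.16 in place of 0.24. PSMA1 and PSMA3 were not called, at log2 fold changes of 0.06 and 0.11. No alpha subunit fell. In the structural beta subunits PSMB1 rose most, from 139, 146 and 137 CPM to 206, 202 and 229 CPM (log2 fold change 0.59, SE 0.055, adjusted p = 7.26e-08). PSMB2 and PSMB4 rose by 0.43 and 0.41. PSMB3 went the other way without passing the test (-0.11, adjusted p = 0.191), and its groups overlapped. That non-call rested on N3: without N3 the log2 fold change of PSMB3 was -0.20 (adjusted p = 0.0054), without C3 and N3 -0.17 (0.00683), and with upper-quartile factors -0.17 (0.0398).

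The constitutive catalytic subunits did not move together. PSMB6, the beta1 subunit that cuts after acidic residues, was at 36.5, 36.0 and 36.9 CPM in the controls and 60.5, 58.4 and 70.3 CPM with NFIC shRNA, a log2 fold change of 0.79 (SE 0.072, adjusted p = 5.13e-08). PSMB5, the beta5 subunit that cuts after hydrophobic residues and is the main target of bortezomib, went from 63.9, 63.6 and 64.0 CPM to 93.8, 89.4 and 96.5 CPM (0.55, SE 0.054, adjusted p = 1.52e-07). PSMB7, the beta2 subunit that cuts after basic residues, was at 59.6, 62.2 and 61.5 CPM and 63.7, 57.6 and 60.5 CPM, with a log2 fold change of -0.01 (95% interval -0.13 to 0.10, adjusted p = 0.867). The groups were apart for PSMB6 and PSMB5 and overlapped for PSMB7.

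Of the inducible subunits that replace them, 2 of 3 rose, each by less on the log2 scale than PSMB5 or PSMB6. PSMB9, the inducible beta1 subunit, rose from 38.1, 39.7 and 36.9 CPM to 49.6, 47.1 and 55.1 CPM (log2 fold change 0.40, SE 0.070, adjusted p = 8.27e-05). PSMB10, the inducible beta2 subunit, was at 43.7, 49.9 and 47.3 CPM and 57.2, 53.5 and 52.9 CPM (0.21, SE 0.065, adjusted p = 0.00921), a call lost without C1 (adjusted p = 0.0749) and without N1 (0.0532). The gene AC040162.1, on the same strand, covers 39.4% of the exons of PSMB10 and had a log2 fold change of 0.26. How reads in the exons it shares with PSMB10 were assigned is not stated. PSMB8, the inducible beta5 subunit, was at 116, 119 and 109 CPM and 123, 122 and 125 CPM (0.11, SE 0.052, adjusted p = 0.0866). Its groups did not overlap, and the test did not pass, although it did in 3 of the 16 alternatives (adjusted p = 0.0273 without C3 and N3). An antisense gene, PSMB8-AS1, covers 17.3% of the exons of PSMB8 and had a log2 fold change of 0.52, and without a stated strand setting reads of both cannot be told apart.

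**Figure D4:**
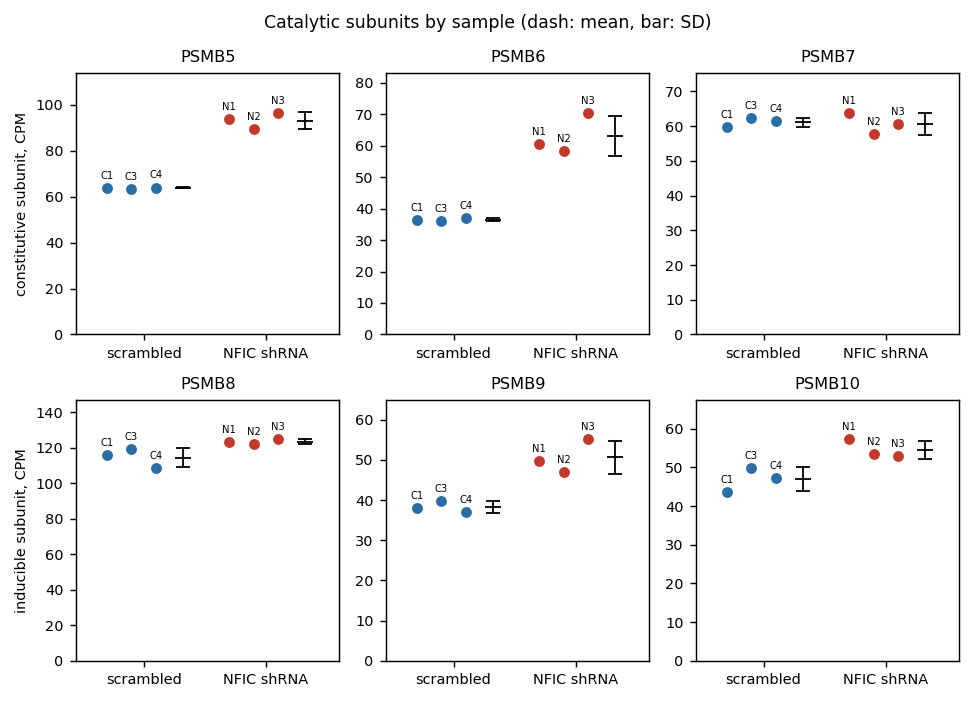
CPM (vertical axis) of the constitutive subunits PSMB5, PSMB6 and PSMB7 and their inducible counterparts PSMB8, PSMB9 and PSMB10 in each scrambled (C) and NFIC shRNA (N) sample, with group mean and SD. PSMB6 goes from 36.0-36.9 to 58.4-70.3 CPM, whereas the PSMB7 samples of both groups share one range.

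The balance between paired subunits was also taken within each sample, which does not depend on scaling between samples. For PSMB8 over PSMB5 the log2 ratio of counts was 0.86, 0.91 and 0.76 in C1, C3 and C4 and 0.39, 0.45 and 0.37 in N1, N2 and N3, a difference of -0.44. For PSMB9 over PSMB6 it was 0.06, 0.14 and 0.00 against -0.29, -0.31 and -0.35, a difference of -0.38. For PSMB10 over PSMB7 it was -0.45, -0.32 and -0.38 against -0.16, -0.11 and -0.19, a difference of 0.23. The groups were apart in each of the 3 ratios, downward for beta5 and beta1 and upward for beta2, and the exact two-sided permutation test gave p = 0.1 for each, also after adjustment over the 3, the smallest p that 3 against 3 samples allow.

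Levels of different genes can be set side by side only per length, and the length mattered here. With the canonical transcript of GENCODE 44, the controls had a mean of 102 CPM per kilobase for PSMB8, 62.1 for PSMB7, 61.1 for PSMB5, 48.1 for PSMB10, 44.3 for PSMB6 and 37.6 for PSMB9. The ratio of PSMB8 to PSMB5 per kilobase was then 1.58 to 1.74 in the controls and 1.20 to 1.27 with NFIC shRNA. With the deposited gene lengths it was 0.756 to 0.834 and 0.576 to 0.607, so which of the pair was more abundant depended on the length used. Over all 50 genes the canonical scale ran in the controls from 6.13 for PSMD9 to 158 for PSMB1, with a median of 43.8 CPM per kilobase.

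In the base of the 19S particle, the ring of ATPases that unfolds substrates, PSMC2 had the largest increase, from 58.9, 60.5 and 57.7 CPM to 96.4, 85.8 and 97.0 CPM (log2 fold change 0.66, SE 0.060, adjusted p = 6.02e-08). PSMC3 rose by 0.61, PSMC5 by 0.45, PSMC1 by 0.41, PSMC6 by 0.32 and PSMC4 by 0.20. The groups did not overlap for any of the 6, all higher, which also held for 32.2% of all genes tested. Exons of NRDE2, on the opposite strand, cover 76.1% of those of PSMC1, and NRDE2 had a log2 fold change of 0.52.

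PSMD12, a scaffold subunit of the lid (chr17:67337916-67366605, minus strand, GRCh38), rose most of all 50. It was at 63.8, 66.0 and 65.2 CPM in the controls and 126, 121 and 145 CPM with NFIC shRNA, or 2.01-fold (log2 fold change 1.01, SE 0.064, adjusted p = 7.99e-10). ADRM1, a ubiquitin receptor that also anchors the deubiquitinase UCHL5, went from 60.5, 62.0 and 56.7 CPM to 90.9, 87.4 and 101 CPM (0.64, SE 0.063). The other ubiquitin receptors of the particle, PSMD2 and PSMD4, rose by 0.52 and 0.31. Lid subunits PSMD11, PSMD6, PSMD13 and PSMD7 rose by 0.46, 0.40, 0.32 and 0.21, and the large base subunit PSMD1 by 0.35. The gene AC009120.2, on the opposite strand, covers 31.2% of the exons of PSMD7 and had a log2 fold change of 0.19. Not called were PSMD3 (0.11), PSMD8 (0.13, but 0.17 and adjusted p = 0.0376 without N2), SEM1 (0.03) and PSMD14, the lid's own deubiquitinase, at 0.07 (adjusted p = 0.250).

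USP14 (chr18:158383-214629, plus strand, GRCh38), a deubiquitinase that docks on the 19S particle and trims ubiquitin chains, was the one 19S gene that fell. Its levels were 64.2, 69.0 and 63.4 CPM in the controls and 54.4, 47.8 and 53.0 CPM with NFIC shRNA, with no overlap (log2 fold change -0.34, SE 0.064, adjusted p = 1.89e-04). Its partner in trimming chains, UCHL5, had a log2 fold change of -0.07 (adjusted p = 0.342).

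The chaperones of the 20S core did not move together. PSMG1 and PSMG2 form a heterodimer that holds the alpha ring, PSMG3 and PSMG4 form another, and POMP joins later and guides the beta subunits. PSMG4 (chr6:3231403-3303373, plus strand, GRCh38) was at 7.58, 7.56 and 6.96 CPM in the controls and 4.22, 3.23 and 3.29 CPM with NFIC shRNA (log2 fold change -1.05, SE 0.14, adjusted p = 7.27e-06), from counts of 149 to 186 and 75 to 87. The deposited length of PSMG4 was 10418 bases, against 785 in its canonical transcript. SLC22A23, on the opposite strand, covers 13.3% of the exons of PSMG4. Which transcripts gave the counts of PSMG4 was not tested. PSMG1 fell from 21.8, 24.5 and 20.7 CPM to 14.1, 14.0 and 14.3 CPM (-0.67, SE 0.087, adjusted p = 4.16e-06).

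PSMG3 was at 20.4, 21.6 and 19.9 CPM and 18.3, 14.4 and 15.5 CPM (-0.37, SE 0.095, adjusted p = 0.00299). PSMG2, the partner of PSMG1, was at 42.6, 44.6 and 42.5 CPM and 46.8, 43.4 and 50.3 CPM (0.12, SE 0.067, adjusted p = 0.144), and passed without N2 (0.17, adjusted p = 0.0424). POMP rose from 75.6, 70.6 and 64.6 CPM to 107, 104 and 113 CPM (0.62, SE 0.062, adjusted p = 1.78e-07). So 3 of the 4 PSMG chaperones had no overlap between groups and were lower, PSMG2 overlapped, and POMP was higher. Of all genes tested, 33.0% were lower and 32.2% higher with no overlap between groups. The 4 PSMG genes together were at 92.4, 98.3 and 90.0 CPM and 83.4, 75.0 and 83.3 CPM, a ratio of 0.861, while the 14 core subunits other than the inducible ones had a ratio of 1.26.

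**Figure D5:**
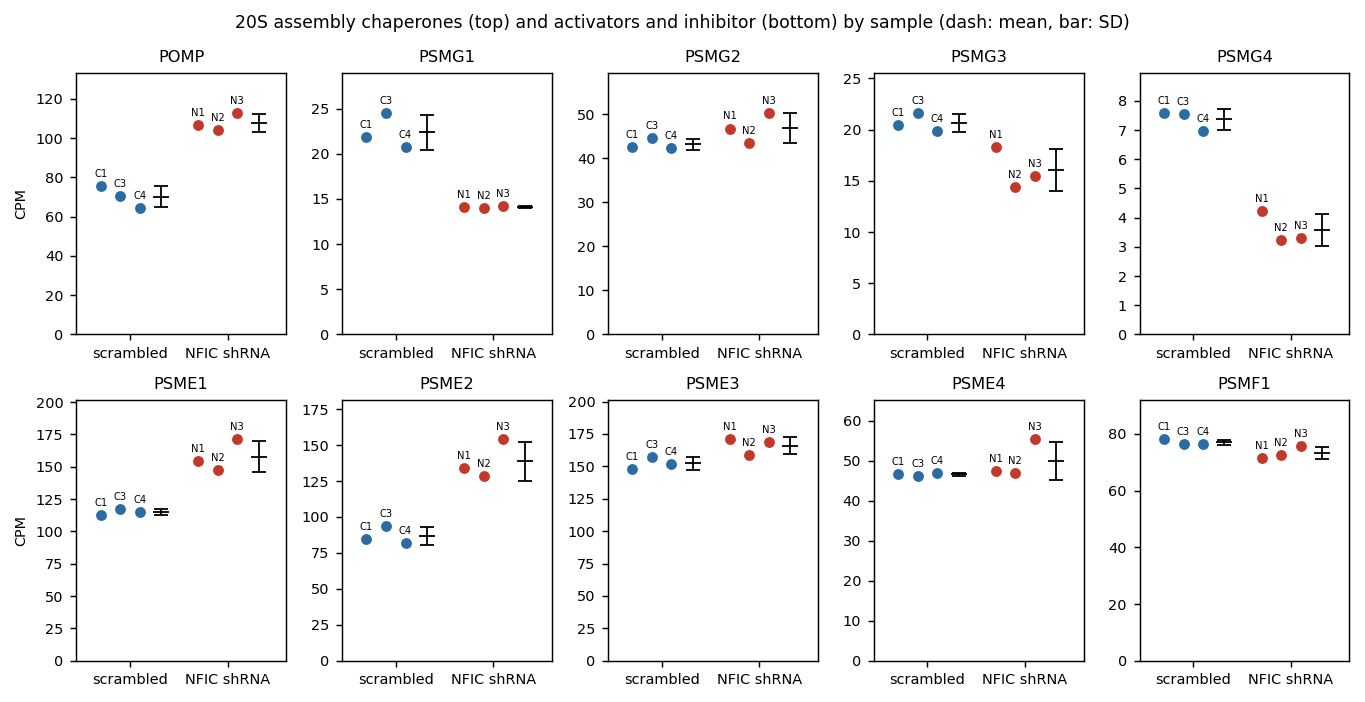
CPM (vertical axis, from 0) of the 20S assembly chaperones (top) and of the activators and the inhibitor (bottom) in each scrambled (C) and NFIC shRNA (N) sample, with group mean (dash) and SD (bar). PSMG1, PSMG3 and PSMG4 lie lower in all 3 NFIC shRNA samples, whereas POMP, PSME1 and PSME2 lie higher.

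The chaperones of the 19S base showed smaller values. PSMD10 (gankyrin) was at 18.3, 18.7 and 16.0 CPM and 21.2, 19.9 and 23.2 CPM (log2 fold change 0.28, SE 0.089, adjusted p = 0.0128), a call lost without C4 (0.0840) and without N3 (0.0509). PSMD9 was at 17.5, 15.5 and 17.1 CPM and 18.9, 19.01 and 20.8 CPM (0.23, SE 0.086, adjusted p = 0.0294), a call lost in 6 of the 16 alternatives, with an adjusted p of up to 0.262. PSMD5 was at 25.1, 24.8 and 23.9 CPM and 22.9, 26.1 and 29.4 CPM (0.09, SE 0.087, adjusted p = 0.376), with overlapping groups.

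Of the activators that cap the core in place of the 19S particle, the interferon-inducible pair PSME1 and PSME2 rose. PSME2 went from 84.9, 93.5 and 81.6 CPM to 134, 128 and 154 CPM (log2 fold change 0.68, SE 0.069, adjusted p = 3.25e-07), and PSME1 from 113, 117 and 115 CPM to 154, 148 and 171 CPM (0.46, SE 0.057, adjusted p = 2.50e-06). Both had no overlap, and they neighbour each other on chromosome 14. The nuclear activator PSME3 was at 148, 157 and 152 CPM and 171, 159 and 168 CPM (0.12, SE 0.051, adjusted p = 0.0439), a call lost in 9 of the 16 alternatives, with an adjusted p of up to 0.243.

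PSME4, which caps the core in nuclei and has a role in histone turnover, was at 46.6, 46.3 and 46.9 CPM and 47.5, 47.0 and 55.4 CPM (0.10, SE 0.069, adjusted p = 0.218). PSMF1, an inhibitor of the core in vitro, was at 78.0, 76.5 and 76.5 CPM and 71.3, 72.6 and 75.5 CPM (-0.07, SE 0.054, adjusted p = 0.246). All NFIC shRNA samples lay above the controls for PSME4 and below them for PSMF1, without either passing the test.

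The genes that regulate or serve the proteasome were counted in 4 lists. Of 14 genes tied to its transcription, 3 rose and 7 fell, with a median log2 fold change of -0.11, or 21.4% and 50%, against 29.6% and 30.3% of all genes tested. NFE2L1, the factor that raises proteasome genes when degradation is impaired, was at 295, 263 and 305 CPM and 264, 260 and 235 CPM (-0.18, adjusted p = 0.0151), with overlapping groups. Of the proteins that free and process it, VCP, the ATPase that extracts it from the endoplasmic reticulum, rose by 0.34, while SEL1L, of the ubiquitin ligase complex there, had -1.13, and DDI2, the protease that cleaves it, had -0.45. NFE2L2 and its partner MAFG rose by 0.26 and 0.32, and NFYC, a subunit of the factor that binds CCAAT, was at 323, 320 and 329 CPM and 160, 167 and 163 CPM (-0.99).

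Of 16 shuttle factors and enzymes that bind the proteasome, 7 rose and 2 fell (median 0.14), or 43.8% and 12.5%, against 29.6% and 30.3% of all genes. IPO9, which imports proteasomes into the nucleus, rose by 0.63, the ubiquitin ligase UBE3C by 0.48 and the shuttle UBQLN2 by 0.45, while TXNL1, a thioredoxin bound to the 19S particle, had -0.68 and PITHD1 -0.54. In the list of 6 genes of ubiquitin and its activation, 3 rose and 1 fell, which is 50% and 16.7% of a short list, against the same 29.6% and 30.3%. The polyubiquitin gene UBB rose by 0.55 and the activating enzyme UBA6 by 0.48, while RPS27A, which encodes ubiquitin fused to a ribosomal protein, had -0.45.

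Of 12 genes of interferon signalling and MHC class I peptide loading, 6 rose and 3 fell (median 0.15), or 50% and 25.0%, against 29.6% and 30.3% of all genes. IRF1, a factor that drives the inducible subunits, was at 28.4, 28.2 and 29.3 CPM and 63.2, 60.9 and 61.5 CPM (log2 fold change 1.11), and B2M, the light chain of class I molecules, had 0.64. TAPBP, which bridges the peptide transporter and class I molecules, had -1.08 and the trimming peptidase ERAP1 -0.82. TAP1, the transporter gene beside PSMB9, rose by 0.35. None of these lists was tested as a group.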

How the data were processed

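THP-1 mRNA was sequenced from 3 scrambled and 3 NFIC shRNA samples. The authors trimmed reads with Trim Galore, mapped them to GRCh38 with STAR and counted them with featureCounts on Ensembl release 96; strand and multi-overlap settings are not given in the sources used here. The deposited raw counts per gene were used, and per the file headers the table also holds size-factor-normalized counts (signal), FPKM, and a DESeq2 comparison (base mean, log2 fold change, its standard error, Wald score, p-value and adjusted p-value); none of the authors' comparison columns was used. Counts were filtered (filterByExpr), scaled by TMM and tested with edgeR 4.0.16 (quasi-likelihood, R 4.3.3) over all 6 samples, with Benjamini-Hochberg adjustment over 19182 genes at 0.05. The test was checked on simulated counts. Alternatives were DESeq2 1.42.0, 3 other scalings, other filters, protein-coding genes only, replicate blocks and left-out samples. Depth was 20369543 to 24809720 counts per sample, and floors cover counting error only. Within-sample ratios used an exact permutation test. Lengths and overlaps came from GENCODE 44, and promoters from RefSeq. Of the genes named, catalytic subunits, chaperones, activators and the inhibitor are given in full, with the largest called changes of each other role and up to 3 called genes per direction and list. NFE2L1, UCHL5 and TAP1 are exceptions to this rule, picked once their values had been seen. The members, lists and motifs were chosen with earlier results of these data known. Some genes of the lists and markers are counted but not reported here by name.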

Additional observations from a re-analysis of the deposited data

How the results depend on the processing

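Over the alternatives, 29 to 36 of the proteasome genes rose and 4 to 6 fell, against 33 and 4, and NFIC stayed lower in each. Without 1 sample, 29 to 35 rose and 4 to 5 fell. Of 800 gene-by-alternative values, 760 kept direction and side of the threshold, 20 lost the call, 14 gained it and 6 changed sign. The changes of sign were in 2 genes near 0, for which the cause was not tested: PSMB7 had a log2 fold change of 0.0055 with total counts, 0.0030 with DESeq2, -0.045 to 0.027 without 1 sample (0.027 without N2) and 6.3e-05 without C3 and N3, and SEM1 had -0.030 with upper-quartile factors and -0.015 without C3 and N3. Leaving out the 11 genes whose exons another gene covers by 10% or more, a choice made after seeing the data, left 25 higher and 3 lower of 39. Deviations from the group mean correlated at 0.06, -0.09 and -0.05 for samples with the same replicate number in the labels. For C1 with N1, C3 with N3, and C4 with N2 the correlations were 0.06, 0.15 and 0.03. The value for C3 with N3 was the highest of all pairs. Whether samples shared a batch or were paired was not tested. With the replicate block 32 rose and 4 fell, and with C1 and N1, C3 and N3, and the remaining C4 and N2 as blocks 36 and 4. The titles share a number only in the first 2 of these pairs. With 3 samples a group the exact test of the ratios could not go below 0.1, and PSMG4, the gene with the lowest counts, rested on 75 to 186 per sample.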

Other observations

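Genes that share exons with proteasome genes also had counts. MIR7703, which lies wholly within exons of PSME2 over 77 bases, had a mean of 394 counts and a log2 fold change of 0.89, against 0.68 for PSME2. Both lie on the same strand, so these counts cannot be told apart from reads of PSME2 and do not measure the microRNA. The gene AC018523.2 had a mean of 2839 counts against 2545 for PSMA1, which it overlaps. Of 12 pseudogenes named after proteasome genes, none exceeded 27 counts in any sample. In all, 11 of the 50 genes shared 10% or more of their exon bases with a gene that had at least 10% of their counts. They were ADRM1, PSMA1, PSMA2, PSMA6, PSMB8, PSMB10, PSMC1, PSMC5, PSMD7, PSMD9 and PSMG4.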
